A study of Mus musculus with 20 samples.

Results

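The effect of Ogfod1 loss on the mouse heart transcriptome was taken as the average of 2 contrasts, knockout (KO) minus wild type (WT) under vehicle and KO minus WT under isoproterenol. All 20 libraries of the series entered 1 fit, 10 from KO hearts and 10 from WT hearts. The genes looked for were those that passed the test of this average and shifted the same way in each treatment, and genes that passed the average alone are named as such. The criterion was an adjusted p under 0.05 for the average, and in each treatment taken alone the same sign and an unadjusted p under 0.05. Of 55335 genes in the count table, 14878 had enough counts to be tested and 100 met it, 45 higher and 55 lower in KO hearts.

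Hearts came from C57BL/6N mice aged 3 to 5 months on an NIH-31 diet. The 4 groups held 5 libraries each: OGFOD1-KO with vehicle, WT with vehicle, OGFOD1-KO with isoproterenol and WT with isoproterenol. Osmotic minipumps delivered the solutions over 2 weeks. The vehicle was phosphate-buffered saline with sodium ascorbate, which the isoproterenol groups received as well. Powdered whole heart was the source of RNA, so atria, ventricles, vessels and nerves were mixed, and a smaller number of cells of a type cannot be told apart from less RNA per cell. The deleted stretch of Ogfod1 and the cells in which it was deleted are not given in the sources used here, nor whether each library came from a different mouse, so the p-values measure the spread between libraries.

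OGFOD1 belongs to the oxygenases that need iron and 2-oxoglutarate, and hydroxylates a prolyl residue in Rps23, a protein near the decoding centre of the small ribosomal subunit. Work in other cells has tied it to translation and to stress granules. Isoproterenol activates the beta-adrenergic receptors of the heart, and infusing it for weeks is widely used to enlarge the heart. Averaging over both treatments asks which changes accompany loss of the enzyme in hearts with and without that stimulus.

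Total counts per library ranged from 14609808 to 43671055 and 36.9% to 46.4% of them fell on mt-Rnr2, an RNA of the mitochondrial ribosome. There were 2 libraries that stood apart. WT vehicle replicate 2 held 0.897% of its counts in the transcript Gm42418, against 0.0086% to 0.0207% in the other libraries. KO isoproterenol replicate 5 summed to 8352 counts-per-million units (CPM) over 42 extracellular matrix genes, against at most 3172 CPM in the other KO isoproterenol libraries. Library numbers in the labels run from 5 to 14 for KO and cover 1 to 4 and 15 to 20 for WT. Xist was counted 0 to 4 times per library, and the Y-linked gene Ddx3y measured 44.8 to 56.2 CPM in KO hearts and 43.3 to 56.9 CPM in WT hearts, the pattern of male tissue in both genotypes.

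Among the RNAs that were higher in KO hearts were small nuclear RNAs (snRNAs) of the spliceosome, and their sequences, from GENCODE vM21, are shown because the counts of near-identical copies may not be separable. The 3 called snRNAs of 191 bases, Gm25939, Gm22973 and Gm25360, lay within 3 to 10 bases of each other (94.8% to 98.4% identity). The capitals mark the 11 positions at which the copies differ.
Gm25939: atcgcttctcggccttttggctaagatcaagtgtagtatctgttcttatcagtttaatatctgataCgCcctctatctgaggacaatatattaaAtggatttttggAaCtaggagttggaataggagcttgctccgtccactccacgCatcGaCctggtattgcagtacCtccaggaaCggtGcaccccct
Gm22973: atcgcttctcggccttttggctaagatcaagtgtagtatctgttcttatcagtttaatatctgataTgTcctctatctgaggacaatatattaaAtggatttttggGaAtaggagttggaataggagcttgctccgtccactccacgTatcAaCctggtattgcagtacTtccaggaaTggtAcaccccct
Gm25360: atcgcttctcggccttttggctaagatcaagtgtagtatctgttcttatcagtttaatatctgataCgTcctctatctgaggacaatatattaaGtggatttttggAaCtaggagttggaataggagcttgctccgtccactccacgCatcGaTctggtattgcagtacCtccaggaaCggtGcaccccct
Gm25939 lies at chr1:72255008-72255198, Gm22973 at chr12:59040335-59040525 and Gm25360 at chr1:72226240-72226430, all on the plus strand of GRCm38. Another pair of called snRNAs, Gm24407 (chr5:115490254-115490394) and Gm24265 (chr5:115489459-115489599), was 141 bases long, on the plus strand, and differed at 2 bases, again in capitals.
Gm24407: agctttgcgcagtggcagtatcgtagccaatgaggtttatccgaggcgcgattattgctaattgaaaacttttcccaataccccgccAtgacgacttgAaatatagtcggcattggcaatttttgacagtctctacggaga
Gm24265: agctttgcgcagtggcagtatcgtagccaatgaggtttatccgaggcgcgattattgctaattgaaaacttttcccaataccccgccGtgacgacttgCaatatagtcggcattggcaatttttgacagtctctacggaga
Rnu12 (chr15:83149644-83149794, plus strand) is the snRNA of the minor spliceosome that removes a rare class of introns. Rny3 (chr6:47781624-47781725, plus strand) is a Y RNA that binds the Ro autoantigen. They were 151 and 102 bases long, and only RNAs of equal length were compared, so their likeness to the others was not measured.
Rnu12: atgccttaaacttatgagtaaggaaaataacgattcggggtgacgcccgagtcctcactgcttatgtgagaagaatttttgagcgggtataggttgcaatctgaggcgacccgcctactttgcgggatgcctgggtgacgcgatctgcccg
Rny3: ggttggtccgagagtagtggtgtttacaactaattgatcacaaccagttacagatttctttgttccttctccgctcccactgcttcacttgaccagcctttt
Up to 12 other annotated snRNAs, the called copies among them, were within 5% of a called 191-base copy. For Rnu12 there were 2 such snRNAs, of which 0 were tested. How reads that fit several copies were counted is not given in the sources used here, so these values may describe a sequence family rather than a locus.

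Ogfod1 itself separated the genotypes in every library. It measured 2.39, 3.03 and 4.13 CPM (lowest, median and highest) in the 10 KO libraries, against 16.9, 19.5 and 21.8 CPM in the 10 WT libraries. The average log2 fold change was −2.61, with a standard error (SE) of 0.0805 and an adjusted p of 3.23e-20 in the quasi-likelihood test of edgeR, adjusted after Benjamini and Hochberg as are all adjusted p given here. Neighbours of Ogfod1 on chromosome 8, 50 genes tested within 2 Mb, gave 0 edgeR calls and 3 genes with an unadjusted p under 0.05. Rps23, the substrate of the enzyme, measured 27.5, 30.1 and 37.0 CPM in KO hearts and 26.4, 29.3 and 36.2 CPM in WT hearts. Its change of 0.06 on the log2 scale (SE 0.0629) had an adjusted p of 0.766.

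The averaged effect touched many genes by small amounts. Of 14878 genes, 126 (0.847%) passed, 57 of them higher (0.383%) and 69 lower (0.464%) in KO hearts. The median size of these changes was 0.30 on the log2 scale, 24 exceeded 1.5-fold and 8 exceeded 2-fold. The shift in both treatments was met by 100 genes (0.672%), 45 higher (0.302%) and 55 lower (0.37%). All 126 had the same sign in both treatments, as did 53.3% of all genes tested. The average that selected them contains both treatments, so this agreement is a property of the selection.

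Each treatment taken alone, with 5 KO against 5 WT libraries, gave fewer calls. Under vehicle 19 genes passed (0.128%), 9 higher (0.0605%) and 10 lower (0.0672%) in KO hearts. Under isoproterenol 27 passed (0.181%), 8 higher (0.0538%) and 19 lower (0.128%). These contrasts share no library, so each can be read in the other. Apart from Ogfod1, 17 of the 18 genes called under vehicle had the same sign under isoproterenol, and 9 had an unadjusted p under 0.05 there. Of the 26 genes called under isoproterenol, 25 had the same sign under vehicle, 13 of them with an unadjusted p under 0.05. Genes called in both treatments were Cenpf, Kcnj5 and the long noncoding RNA Gm36827, 16.7% of the vehicle list and 11.5% of the isoproterenol list.

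**Figure D1:**
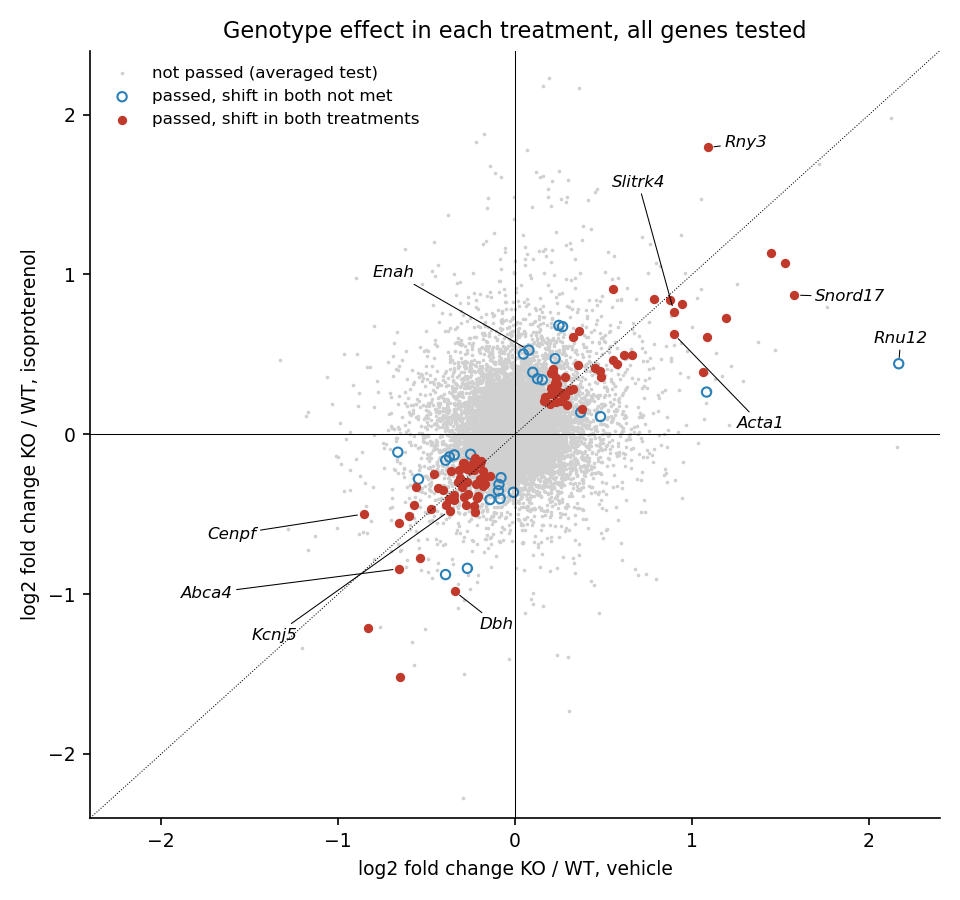
Log2 fold change KO over WT under vehicle (x axis) and under isoproterenol (y axis) for all genes tested except Ogfod1, with 8 genes beyond the axes not drawn. Filled red points are genes that passed the averaged test and shifted in both treatments, open blue points passed without meeting the second requirement, and grey points did not pass. The coloured points fall in the lower left and upper right, and Rnu12 and Enah lie close to 1 axis each.

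Cenpf fell with the smallest p after Ogfod1. It encodes a large protein of the kinetochore that also binds microtubules. KO vehicle hearts had 22.1, 18.9, 19.0, 18.6 and 21.1 CPM, against 38.6, 43.0, 34.9, 37.9 and 27.0 CPM in WT vehicle hearts. Under isoproterenol Cenpf measured 45.7, 54.3, 53.6, 45.0 and 45.3 CPM in KO hearts, against 73.5, 77.4, 63.3, 63.0 and 67.4 CPM in WT hearts. All KO libraries lay below all WT libraries within each treatment, and the treated groups of both genotypes lay above their vehicle groups. The log2 fold change was −0.68 on average (SE 0.0660, adjusted p = 6.77e-07), −0.86 under vehicle and −0.50 under isoproterenol. Of 20 tested genes on a cell cycle list, Cenpf was the 1 that passed. The list had 6 positive and 14 negative members and a median log2 fold change of −0.07, with 0 higher and 1 lower at an unadjusted p under 0.05. Its members included Mki67, the common marker of cycling cells, at −0.04 and Top2a, the topoisomerase of dividing cells, at 0.05 (averaged log2 fold changes).

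Several genes of cardiac potassium and sodium channels were lower in KO hearts. Of 30 tested members of a list of potassium, sodium and pacemaker channel genes, 6 were lower and 0 higher at the adjusted threshold of the averaged edgeR test, and at an unadjusted p under 0.05 the counts were 15 lower and 1 higher (over all genes tested 6.2% lower and 6.59% higher). The list's median log2 fold change was −0.20, beside 0.00 for all genes tested. The same count, 6 lower and 0 higher, was found by DESeq2, by limma-voom, with 2 surrogate variables and without the libraries that stood apart. Summed over the list, KO vehicle hearts had 1141 to 1296 CPM against 1283 to 1347 CPM in WT vehicle hearts, and KO isoproterenol hearts had 1244 to 1313 CPM against 1313 to 1435 CPM in WT isoproterenol hearts. Among channel genes outside the list, which were not counted as a set, some were higher instead. Kcnt2, a potassium channel gene named after its values were seen, was higher and shifted in both treatments. Its averaged log2 fold change was 0.28 to 0.35 over the 31 alternatives, and its call was lost without WT vehicle replicate 3. Scn7a, described below, was higher too.

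Inward rectifiers set the resting potential of heart muscle cells or slow the pacemaker under vagal tone. Kcnj5, which encodes a subunit of the acetylcholine-gated potassium channel, measured 25.3, 25.6, 30.8, 26.4 and 26.1 CPM in KO vehicle hearts, against 30.2, 38.4, 38.6, 32.7 and 32.9 CPM in WT vehicle hearts. Under isoproterenol Kcnj5 measured 28.4, 25.5, 30.9, 25.5 and 25.9 CPM in KO hearts, against 33.9, 38.2, 40.0, 35.7 and 42.1 CPM in WT hearts. Under isoproterenol the groups did not overlap, and under vehicle 1 KO library lay above the lowest WT library. Kcnj5 fell, with a log2 ratio of −0.42 (SE 0.0556, adjusted p = 8.11e-05), close in both treatments (−0.37 under vehicle and −0.48 under isoproterenol). Its partner subunit gene Kcnj3 had a log2 fold change of −0.04 and did not pass. Kcnj2, the main inward rectifier of the ventricle, measured 22.9, 28.2 and 33 CPM in the 10 KO libraries and 31.1, 35.8 and 48.8 CPM in the 10 WT libraries. Its log2 fold change of −0.39 (SE 0.0720) had an adjusted p of 0.00756, and under isoproterenol the groups did not overlap.

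Repolarising and leak channels followed. Kcnq1, the pore of the slow delayed rectifier, measured 21.0, 21.1, 18.9, 19.8 and 21.7 CPM in KO vehicle hearts, against 25.5, 24.1, 26.0, 24.2 and 25.3 CPM in WT vehicle hearts. Under isoproterenol Kcnq1 measured 25.8, 26.5, 25.5, 26.4 and 24.8 CPM in KO hearts, against 25.2, 36.2, 33.3, 34.5 and 39.9 CPM in WT hearts. The vehicle groups were apart, and under isoproterenol 1 WT library fell among the KO libraries. Kcnq1 fell, with a log2 ratio of −0.34 (SE 0.0563, adjusted p = 0.00195). The antisense transcript Kcnq1ot1 overlaps this gene and had a log2 fold change of 0.13 (adjusted p = 0.299), and since the strand setting of the counting is not given, the assignment of their shared reads is uncertain. Kcne1, the auxiliary subunit of the same current, had a log2 fold change of −0.41 and did not pass.

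Kcnk3, Kcnip2 and Scn10a also fell and were named after their values were seen. Kcnk3, a leak potassium channel, measured 72.9, 91.8 and 109 CPM in KO hearts and 88.4, 117 and 127 CPM in WT hearts, a change of −0.24 on the log2 scale (SE 0.0521; adjusted p of 0.0175). Kcnip2, the accessory subunit of the transient outward current, had a log2 fold change of −0.24 (adjusted p = 0.0246), and lost its call in 5 of the 20 runs that left out 1 library. Scn10a, a sodium channel best known from sensory neurons, measured only 0.921, 1.46 and 2.45 CPM in KO hearts and 0.989, 2.55 and 3.28 CPM in WT hearts. Its log2 fold change was −0.61 (adjusted p = 0.0246), and the call was lost without KO vehicle replicate 5 or without WT vehicle replicate 3. Cacnb2, the beta subunit of the L-type calcium channel, was the only 1 of 27 tested calcium handling genes that passed (log2 fold change −0.24, adjusted p = 0.0278), and it lost the call in 7 of the 20 leave-one-out runs. That list had 6 lower and 1 higher members at an unadjusted p under 0.05 (over all genes tested 6.2% lower and 6.59% higher), and a median of −0.03. It summed to 11796 to 12630 CPM in KO vehicle hearts, against 12850 to 13029 CPM in WT vehicle hearts. Under isoproterenol the sums were 10460 to 12733 CPM in KO hearts and 11986 to 13038 CPM in WT hearts. The L-type channel pore gene Cacna1c (0.01) and the ryanodine receptor gene Ryr2 (−0.07) did not pass.

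**Figure D2:**
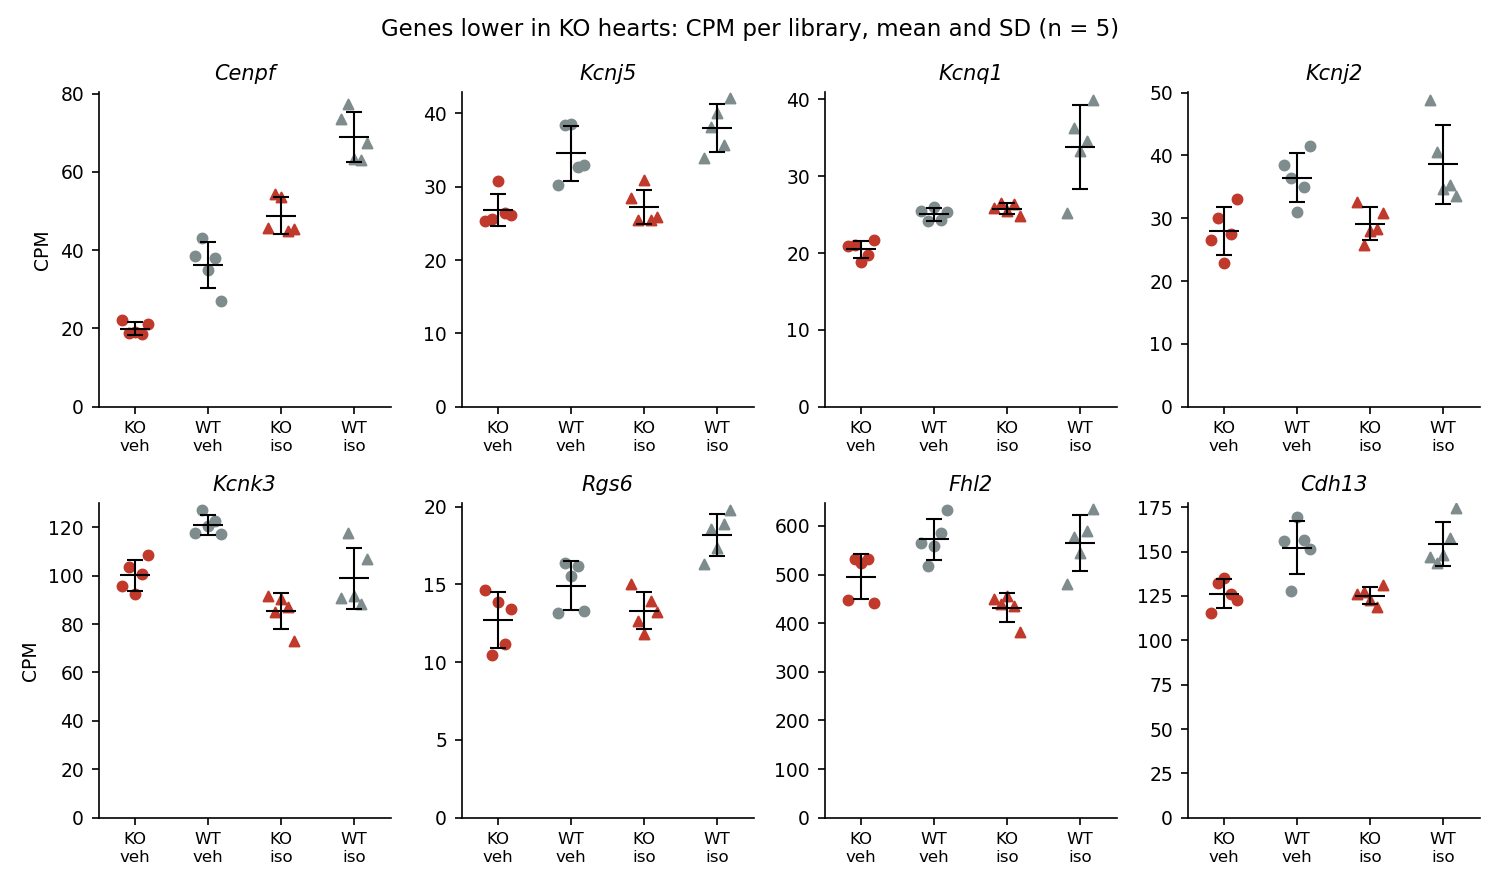
CPM per library (y axis, from 0) for 8 genes that were lower in KO hearts, in KO vehicle, WT vehicle, KO isoproterenol and WT isoproterenol hearts (x axis). Points are libraries and black bars the mean and SD of 5. In Cenpf the KO libraries lie below the WT libraries within each treatment, and in Kcnk3 the vehicle groups are apart while the isoproterenol groups overlap.

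The promoters of the called channel genes and Cenpf were read where the RefSeq promoter table of GRCm38.p6 held them, which was so for 5 of 7. The 250 bases before the start are shown for Kcnj5 (chr9:32344345-32344594, minus strand), Kcnj2 (chr11:111065914-111066163, plus strand) and Cenpf (chr1:189688087-189688336, minus strand), as those of the 5 with the smallest p. Capitals mark matches, on either strand, to the GC box GGGCGG or the E-box CACGTG.
Kcnj5: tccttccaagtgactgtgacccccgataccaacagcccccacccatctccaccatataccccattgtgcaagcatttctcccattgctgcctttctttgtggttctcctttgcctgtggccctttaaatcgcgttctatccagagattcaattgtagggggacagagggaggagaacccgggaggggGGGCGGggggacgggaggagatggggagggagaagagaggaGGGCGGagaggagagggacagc
Kcnj2: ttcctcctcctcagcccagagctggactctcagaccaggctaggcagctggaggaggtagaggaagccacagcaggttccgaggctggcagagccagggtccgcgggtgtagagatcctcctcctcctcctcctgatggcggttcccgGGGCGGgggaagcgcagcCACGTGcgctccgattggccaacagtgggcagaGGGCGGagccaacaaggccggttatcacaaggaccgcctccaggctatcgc
Cenpf: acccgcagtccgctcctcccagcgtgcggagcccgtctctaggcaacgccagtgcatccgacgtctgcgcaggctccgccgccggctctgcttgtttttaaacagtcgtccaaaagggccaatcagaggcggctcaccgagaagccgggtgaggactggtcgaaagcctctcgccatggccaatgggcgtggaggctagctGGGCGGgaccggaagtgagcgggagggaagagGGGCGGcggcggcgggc
Each held 2 GC boxes, and Kcnj2 also 1 E-box, none of them overlapping. Over all 32851 promoters of that length in the table, 32.7% held a GC box and 6% an E-box. The MEF2 motif (in 3.2% of all promoters) was also searched on both strands, as were a GATA factor motif (10%) and the cyclic AMP response element TGACGTCA (1.5%). None of these was found in the 3 windows. The GC content was 58% for Kcnj5, 65.6% for Kcnj2 and 67.6% for Cenpf, beside a median of 52.4%. Windows read but not shown were those of Kcnip2 and Scn10a. Kcnip2 held 2 GC boxes at a GC content of 66.8%, though the bases after its start were not found in its GENCODE transcripts. Scn10a held no match to any of these motifs, at a GC content of 49.6%.

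Single genes of receptors and G-protein signalling fell, while most members of their lists did not pass. On a list of 11 tested muscarinic receptor and RGS genes, Kcnj5 and Rgs6 were lower and 0 higher, and the median log2 fold change was −0.04, with 5 positive and 6 negative members. The list had 4 lower and 0 higher members at an unadjusted p under 0.05 (over all genes tested 6.2% lower and 6.59% higher). Rgs6, which shortens G-protein signals of the muscarinic receptor, measured 10.4, 13.3 and 15.0 CPM in KO hearts and 13.2, 16.3 and 19.8 CPM in WT hearts. Its log2 fold change was −0.34 (SE 0.0656, adjusted p = 0.00827), and under isoproterenol the 5 KO libraries lay below the 5 WT libraries. The muscarinic receptor gene Chrm2 had a log2 fold change of −0.14 and did not pass. Of 36 tested genes of beta-adrenergic and cyclic AMP signalling, Adra1b, an alpha-type adrenergic receptor, was lower (−0.31, adjusted p = 0.0318, the call lost in 7 of 20 leave-one-out runs) and 0 were higher, with 13 positive and 23 negative members and a median of −0.06. This list had 5 lower and 2 higher members at an unadjusted p under 0.05. The receptor gene of isoproterenol in heart muscle, Adrb1, had a log2 fold change of −0.08 and did not pass. Other receptor genes fell and were named after their values were seen. Gpr22, an orphan receptor of the heart, had a log2 fold change of −0.47 (adjusted p = 0.0102) and nearly the same size in both treatments, and shares its position with Cog5. Crhr2, the urocortin receptor, stood at −0.39 (adjusted p = 0.0102). Adora1, an adenosine receptor that slows the heart, stood at −0.44 (adjusted p = 0.0323), lost in 10 of 20 leave-one-out runs.

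Genes of the muscle cell and its cytoskeleton moved both ways. Fhl2, a LIM-domain protein that binds titin, measured 381, 449 and 532 CPM in KO hearts and 479.7, 570.4 and 634 CPM in WT hearts. It fell, with a log2 fold change of −0.30 and an adjusted p of 0.00302 (SE 0.0526). Acta1 encodes the alpha actin of skeletal muscle, which the fetal heart makes too, and was higher. It measured 125, 68.5, 80.6, 93.3 and 104 CPM in KO vehicle hearts, against 48.6, 35.2, 51.1, 65.6 and 51.9 CPM in WT vehicle hearts, with all KO libraries above all WT libraries. Under isoproterenol Acta1 measured 34.2, 31.7, 27.7, 29.2 and 25.5 CPM in KO hearts, against 28.8, 13.5, 21.8, 19.5 and 12.4 CPM in WT hearts, with overlap. The log2 fold change of Acta1 was 0.76 (SE 0.152, adjusted p = 0.0246), and the call was lost in 5 of 20 leave-one-out runs. Of 20 tested fetal and hypertrophy genes, Acta1 was higher and Fhl2 lower at the adjusted threshold. The list had 6 higher and 4 lower members at an unadjusted p under 0.05 (over all genes tested 6.59% higher and 6.2% lower). Its calls without KO isoproterenol replicate 5 were 2 higher and 1 lower. Nppa (0.11), Nppb (0.42) and Myh7 (−0.53), markers of the stressed heart, did not pass, and of 29 sarcomere genes 0 passed by edgeR or DESeq2 (1 higher and 5 lower in edgeR at an unadjusted p under 0.05). Without KO isoproterenol replicate 5, 1 sarcomere gene was higher.

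Regulators of actin and microtubules gave 4 calls among 21 tested genes, 2 in each direction. Tiam2, an exchange factor that activates Rac at the cell edge, measured 6.05, 8.89 and 9.54 CPM in KO hearts and 4.45, 5.78 and 6.81 CPM in WT hearts. Its log2 fold change was 0.50 (SE 0.0885, adjusted p = 0.00302), and the isoproterenol groups did not overlap. Cenpf, described above, was lower. The other pair, Enah and Mtus2, passed the average without a shift in both treatments. Enah, which lengthens actin filaments, had 122, 158, 159.6, 147 and 121 CPM in KO isoproterenol hearts, against 91.2, 100.1, 93.4, 100.1 and 106 CPM in WT isoproterenol hearts. Its log2 fold change was 0.53 under isoproterenol and 0.08 under vehicle. Mtus2, a microtubule-binding protein named after its values were seen, had 149, 148, 163, 159.5 and 161 CPM in KO isoproterenol hearts, against 197, 179.9, 210.5, 208 and 209 CPM in WT isoproterenol hearts. Its log2 fold changes were −0.36 under isoproterenol and −0.01 under vehicle.

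Such genes were looked at with the test of the difference between both genotype effects, since an average can hide unequal parts. By edgeR 0 of 14878 genes passed it (0%). At an unadjusted p under 0.05 there were 1142 genes (7.68%), the lowest adjusted p was 0.231, and DESeq2 called 1, limma-voom 0, the fit with 2 surrogate variables 0 and the fit without the libraries that stood apart 4. Of the 26 genes that passed the average without meeting the shift in both treatments, 14 had an unadjusted p under 0.05 for the difference. They were set apart by a small effect in 1 treatment, which raises this number, so it cannot be read against that of all genes. Besides Enah and Mtus2 these included Rnu12, and, named after their values were seen, Dixdc1, a Wnt pathway protein (−0.66 under vehicle and −0.11 under isoproterenol), and Apobec2, a muscle deaminase family member (−0.09 and −0.35 in the same order).

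Several genes made by fibroblasts and other connective tissue cells were higher in KO hearts. Dcn, the matrix proteoglycan decorin, measured 355, 325, 357, 361 and 318 CPM in KO vehicle hearts, against 309.8, 284, 307, 281 and 315 CPM in WT vehicle hearts. Under isoproterenol Dcn measured 393, 397, 371, 383 and 384 CPM in KO hearts, against 349.9, 307, 359.7, 331 and 346 CPM in WT hearts. The groups did not overlap in either treatment. The log2 fold change was only 0.19 (SE 0.0409, adjusted p = 0.0165), 0.20 under vehicle and 0.19 under isoproterenol. Ccdc80, a matrix protein named after its values were seen, had the same pattern, 82.9, 100.2 and 142 CPM in KO hearts and 71.7, 91.7 and 111 CPM in WT hearts, without overlap in either treatment (0.19, SE 0.0408, adjusted p = 0.0188).

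Igfbp6, a secreted binding protein of insulin-like growth factors, measured 12.2, 10.9, 9.72, 11.7 and 10.8 CPM in KO vehicle hearts, against 8.82, 8.81, 7.23, 9.63 and 8.95 CPM in WT vehicle hearts. Under isoproterenol Igfbp6 measured 14.0, 18.5, 12.2, 14.1 and 13.7 CPM in KO hearts, against 11.2, 11.3, 9.91, 10.4 and 10.7 CPM in WT hearts. All KO libraries lay above all WT libraries within each treatment. Igfbp6 rose, with a log2 ratio of 0.40 (SE 0.0685, adjusted p = 0.00267). Serping1, the inhibitor of the first complement component, stood at 0.20 (adjusted p = 0.0175). The growth factor gene Pdgfd (0.29), the TGF-beta receptor gene Tgfbr1 (0.27) and the sodium-sensing channel gene Scn7a (0.24) also passed, each with adjusted p between 0.0112 and 0.0212. So did 3 related transporter genes that lie together on chromosome 11, Abca6 (0.29), Abca8b (0.26) and Abca9 (0.23, lost in 15 of 20 leave-one-out runs). All of these from Serping1 on were named after their values were seen.

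The wider matrix list rested in part on 1 library. Of 42 tested extracellular matrix and fibrosis genes, 2 were higher, Lum (0.28) and Col12a1 (0.47), and 0 lower. At an unadjusted p under 0.05 there were 14 higher and 0 lower (over all genes tested 6.59% higher and 6.2% lower). The list's median log2 fold change was 0.26 on average, 0.10 under vehicle and 0.37 under isoproterenol. Without KO isoproterenol replicate 5 the list had 1 call, 10 higher and 0 lower at an unadjusted p under 0.05, and an averaged median of 0.12. On all libraries limma-voom called 0 genes of the list. Lum, a proteoglycan, lost its call in 16 of 20 leave-one-out runs and Col12a1, a fibril-associated collagen, in 12. Col12a1 passed the average without a shift in both treatments. Mmp16, a membrane-bound metalloproteinase, had 0.73 (adjusted p = 0.0453) and lost the call in 17. Dcn, Igfbp6 and Ccdc80 kept it in all 31 alternatives run.

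Marker levels of the cell types are given beside these genes. The 7 fibroblast markers summed to 1028 to 1202 CPM in KO vehicle hearts, against 914 to 1071 CPM in WT vehicle hearts, and to 1250.1 to 1348 CPM in KO isoproterenol hearts, against 1123 to 1213 CPM in WT isoproterenol hearts. Of these 7, 2 passed as higher (Dcn and Lum) and 0 as lower, and the median log2 fold change was 0.15. Those higher at an unadjusted p under 0.05 were 5 and those lower 0 (over all genes tested 6.59% higher and 6.2% lower). The 5 cardiomyocyte markers Tnnt2, Actc1, Myh6, Pln and Ryr2 summed to 20735 to 22892 CPM in KO vehicle hearts, against 22608 to 28686 CPM in WT vehicle hearts. Under isoproterenol they summed to 16251 to 21561 CPM in KO hearts and 19529 to 21523 CPM in WT hearts. None of the 5 passed by edgeR (0 higher, 0 lower, 2 lower at an unadjusted p under 0.05, also 0 by DESeq2), and the median was −0.10. Lists of endothelial, smooth muscle, macrophage, adipocyte, atrial and mesothelial markers had 0 calls by edgeR, with 0 to 2 members of each higher and 0 lower at an unadjusted p under 0.05, and DESeq2 called 1 mesothelial marker. The 5 atrial markers summed to 855 to 1067 CPM in KO vehicle hearts, against 638 to 832 CPM in WT vehicle hearts, and to 712 to 995 CPM in KO isoproterenol hearts, against 776 to 908 CPM in WT isoproterenol hearts. The 6 endothelial markers summed to 492 to 526 CPM in KO vehicle hearts, against 466 to 488 CPM in WT vehicle hearts, and to 488 to 537 CPM in KO isoproterenol hearts, against 491 to 553 CPM in WT isoproterenol hearts. On both lists the vehicle groups did not overlap and the isoproterenol groups did. All 6 adipocyte markers (median log2 fold change 0.36), all 6 smooth muscle markers (0.21) and all 5 atrial markers (0.11) had positive values. Without KO isoproterenol replicate 5 these medians were 0.08, 0.04 and 0.13 in that order. The smooth muscle list then had 4 positive and 2 negative members, and the adipocyte and atrial lists 0 negative. Of the 5 lymphocyte markers 0 reached the count filter, with at most 18 counts in a library. Whether the share of cell types moved the genes described here was not tested.

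**Figure D3:**
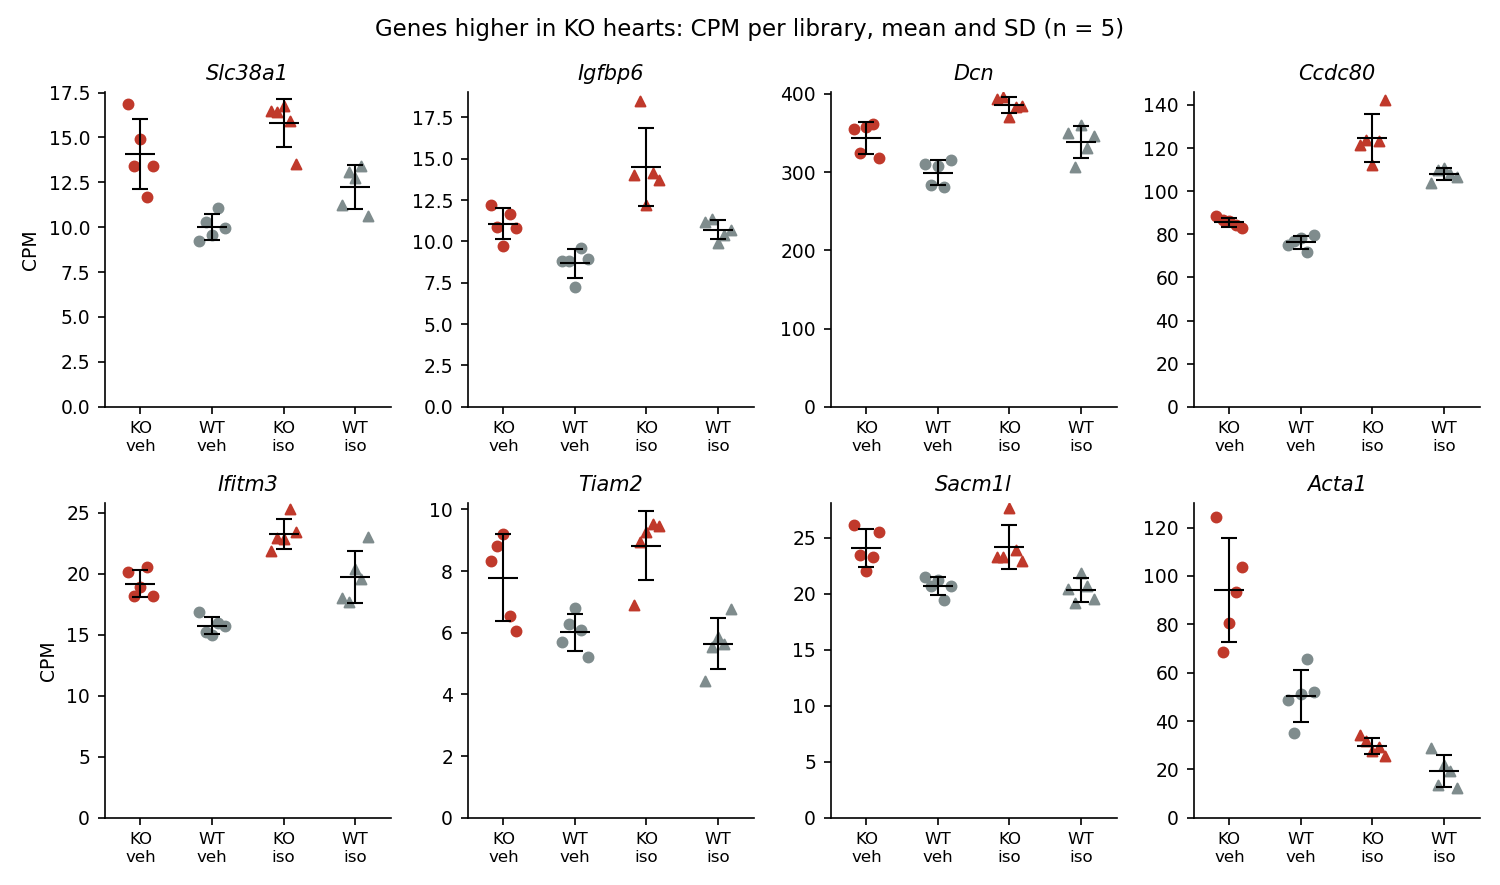
CPM per library (y axis, from 0) for 8 genes that were higher in KO hearts, in KO vehicle, WT vehicle, KO isoproterenol and WT isoproterenol hearts (x axis). Points are libraries and black bars the mean and SD of 5. For Dcn, Ccdc80, Igfbp6, Slc38a1 and Sacm1l the KO libraries lie above the WT libraries within each treatment.

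The amino acid transporter gene Slc38a1 was higher in KO hearts. Slc38a1, a sodium-coupled carrier of glutamine and other neutral amino acids, measured 16.9, 13.4, 14.9, 11.7 and 13.4 CPM in KO vehicle hearts, against 9.23, 10.3, 9.56, 11.1 and 9.98 CPM in WT vehicle hearts. Under isoproterenol Slc38a1 measured 16.5, 16.4, 16.7, 15.9 and 13.5 CPM in KO hearts, against 11.3, 13.1, 12.8, 13.4 and 10.6 CPM in WT hearts. The groups did not overlap in either treatment, and the log2 fold change was 0.42 (SE 0.0654, adjusted p = 0.000837). Slc1a5, another carrier of glutamine, was also higher (0.31, adjusted p = 0.0241, lost in 5 of 20 leave-one-out runs), and Slc38a3, a further one, was lower (−0.24, adjusted p = 0.0210, lost without WT vehicle replicate 3). Both were named after their values were seen.

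The integrated stress response, in which ATF4 drives genes of amino acid synthesis, gave no call. Of 22 tested members of its list 0 passed by edgeR, by DESeq2 or by limma-voom. In edgeR 8 were higher and 1 lower at an unadjusted p under 0.05 (over all genes tested 6.59% higher and 6.2% lower). The 8 included Phgdh (averaged log2 fold change 0.98), Mthfd2 (0.97), Asns (0.81), Pycr1 (0.76) and Psat1 (0.48), enzymes of serine, one-carbon, asparagine and proline metabolism. Atf4 itself stood at −0.02. The list's median was 0.16, and 0.11 without KO isoproterenol replicate 5, where 7 members were higher and 1 lower at an unadjusted p under 0.05.

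Metabolic genes gave few calls and small shifts. Ugp2, which makes UDP-glucose for glycogen, was higher, at 107, 120.1 and 138 CPM in KO hearts and 82.4, 99.96 and 118 CPM in WT hearts (0.27, SE 0.0531, adjusted p = 0.00970), with 0.38 under vehicle and 0.16 under isoproterenol. Ppm1k, the phosphatase that activates breakdown of branched-chain amino acids, was lower, at 63.0, 72.9 and 87.0 CPM in KO hearts and 76.4, 86.8 and 98.1 CPM in WT hearts (−0.24, SE 0.0463, adjusted p = 0.00876). Carnosine synthase, Carns1, was lower (−0.32, adjusted p = 0.0479), a call lost in 14 of 20 leave-one-out runs. Acaa2, the thiolase of fatty acid oxidation, was lower (−0.20, adjusted p = 0.0399), lost in 11 of them. Of 37 fatty acid genes Acaa2 was the 1 that passed, of 35 genes of the TCA cycle and branched-chain amino acids Ppm1k was, and of 44 nuclear-encoded genes of complexes I to V 0 did by edgeR, DESeq2 or limma-voom. At an unadjusted p under 0.05 these lists had 13, 12 and 9 lower members and 0 higher in each (over all genes tested 6.2% lower and 6.59% higher). Their averaged medians were −0.09, −0.08 and −0.06. In the same order the medians were −0.10, −0.06 and 0.005 under vehicle and −0.10, −0.10 and −0.12 under isoproterenol. Without KO isoproterenol replicate 5 the numbers at an unadjusted p under 0.05 were 10, 8 and 5 lower and 0 higher, and the averaged medians −0.07, −0.06 and −0.04. Gpx1, a selenium-containing peroxidase, was higher (0.25, adjusted p = 0.0444) and lost the call in 14 of 20 leave-one-out runs, and it passed the average without a shift in both treatments.

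**Figure D4:**
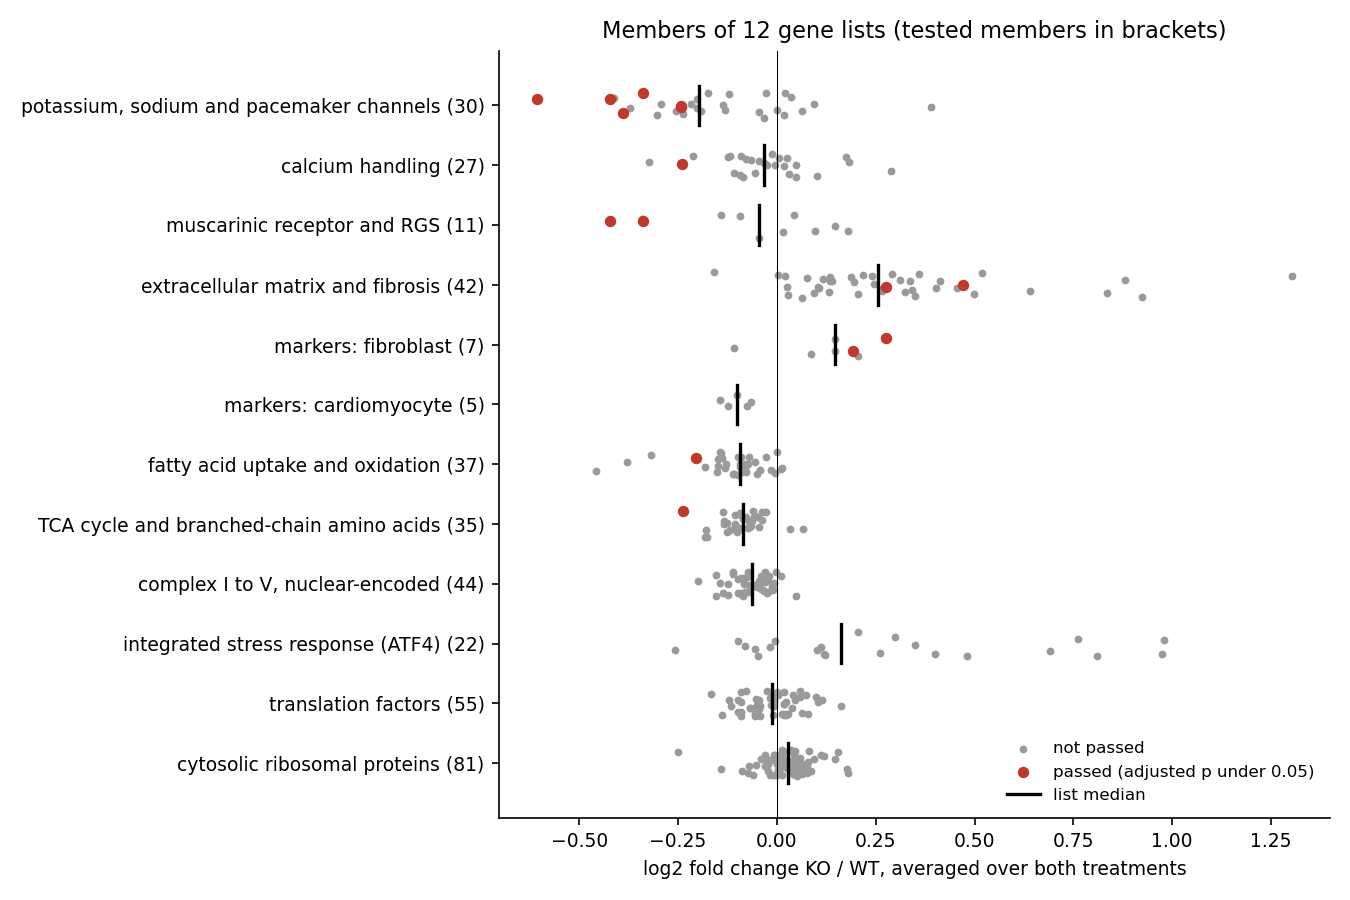
Log2 fold change KO over WT averaged over both treatments (x axis) for the tested members of 12 gene lists (y axis, number of tested members in brackets). Red points passed the averaged test, grey points did not, and black bars are list medians. The channel list has 6 red points below 0 and its median at −0.20, while the translation factor and ribosomal protein lists centre near 0 without a red point.

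Genes of the translation machinery, on which the enzyme acts, did not pass. Of 81 cytosolic ribosomal protein genes 0 passed by edgeR (0 higher and 1 lower at an unadjusted p under 0.05), with a median log2 fold change of 0.03. Of 55 translation factor genes 0 passed (2 higher and 3 lower at an unadjusted p under 0.05), with a median of −0.01. Aminoacyl-tRNA synthetases (37 tested), ribosome biogenesis genes (36) and mitochondrial ribosomal proteins (76) also had 0 calls, with at most 2 higher and 6 lower at an unadjusted p under 0.05. DESeq2 likewise called 0 genes on each of these 5 lists, while the fit with 2 surrogate variables and the fit without both libraries that stood apart each called 1 mitochondrial ribosomal protein gene lower. Among 23 tested oxygenases related to OGFOD1, the 1 that passed was Ogfod1.

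Of 4 tested markers of nerve and Schwann cells, Dbh was lower and 0 were higher, with a median log2 fold change of 0.21. Dbh, the enzyme that makes noradrenaline in sympathetic nerves, measured 2.83, 2.64, 3.20, 2.18 and 3.00 CPM in KO vehicle hearts, against 2.60, 3.35, 3.71, 3.71 and 4.09 CPM in WT vehicle hearts. Under isoproterenol Dbh measured 1.70, 1.97, 1.58, 1.70 and 1.30 CPM in KO hearts, against 2.43, 3.81, 2.70, 3.96 and 3.00 CPM in WT hearts. The vehicle groups overlapped and the isoproterenol groups did not. The log2 fold change was −0.66 on average (SE 0.115, adjusted p = 0.00289), −0.34 under vehicle and −0.98 under isoproterenol. Pirt, a regulator of sensory ion channels named after its values were seen, stood at −0.55 (adjusted p = 0.00204), with −0.84 under isoproterenol and −0.27 under vehicle, and passed the average without a shift in both treatments. Th, the enzyme before Dbh in that pathway, was counted at most 3 times per library and was not tested, and the Schwann cell gene Sox10 (0.24) did not pass.

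Further genes were lower in KO hearts. Abca4, a lipid transporter best known from photoreceptors, measured 1.83, 1.85, 1.34, 2.04 and 2.13 CPM in KO vehicle hearts, against 2.55, 2.94, 3.44, 2.16 and 3.55 CPM in WT vehicle hearts. Under isoproterenol Abca4 measured 2.74, 2.54, 2.24, 2.84 and 2.15 CPM in KO hearts, against 3.52, 3.85, 4.00, 4.24 and 7.06 CPM in WT hearts. The groups did not overlap in either treatment (−0.75, SE 0.127, adjusted p = 0.00204). Cdh13, a cadherin that binds adiponectin, had 115, 126 and 135 CPM in KO hearts and 128, 154 and 174 CPM in WT hearts (−0.28, SE 0.0481, adjusted p = 0.00204). Rnf207, a ubiquitin ligase gene near human variants of the QT interval, stood at −0.29 (adjusted p = 0.00302). Of 34 tested proteasome and muscle ubiquitin ligase genes, 2 were lower and 0 higher (5 lower and 1 higher at an unadjusted p under 0.05), with a median log2 fold change of −0.04. These were Asb2 (−0.25) and Asb18 (−0.28), adaptors of muscle ubiquitin ligases, Asb18 without a shift in both treatments and Asb2 losing its call in 11 of 20 leave-one-out runs. Cntn5, a neuronal adhesion protein at 0.875 to 4.05 CPM, stood at −0.66 (adjusted p = 0.0244).

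Sacm1l, a phosphoinositide phosphatase of the endoplasmic reticulum, was the only gene besides Ogfod1 whose 10 KO and 10 WT libraries did not overlap at all (0.00672% of genes tested in each direction). It measured 26.1, 23.4, 22, 23.3 and 25.5 CPM in KO vehicle hearts, against 21.5, 20.7, 21.2, 19.5 and 20.6 CPM in WT vehicle hearts. Under isoproterenol Sacm1l measured 23.3, 23.2, 27.7, 23.9 and 22.9 CPM in KO hearts, against 20.4, 19.1, 21.9, 20.7 and 19.5 CPM in WT hearts. The margin was small, 22 CPM for the lowest KO library and 21.9 CPM for the highest WT library, and the log2 fold change was 0.24 (SE 0.0468, adjusted p = 0.00990). Within both treatments 8 genes had all KO libraries above all WT libraries (0.0538%) and 6 had them below (0.0403%). The share of all genes whose groups were apart in 1 treatment alone is not given here, so statements of that kind only describe the gene or list named. Slitrk4, a neuronal membrane protein, was among the 8, at 0.942, 1.53 and 2.4 CPM in KO hearts and 0.612, 0.873 and 1.5 CPM in WT hearts (0.83, SE 0.141, adjusted p = 0.00204). Ifitm3, an interferon-induced antiviral protein, was higher (0.26, SE 0.0497, adjusted p = 0.00700).

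The 6 largest rises among called genes were those of small noncoding RNAs. Of 18 tested snRNAs 6 were higher and 0 lower (median log2 fold change 0.44), of 23 small nucleolar RNAs 2 were higher and 0 lower (median 0.27), and of 8 Cajal body RNAs and 16 transcripts annotated as miscellaneous RNA 1 each was higher. Of 12742 protein-coding genes 44 were higher and 66 lower. Without WT vehicle replicate 2, without KO isoproterenol replicate 5 or without both, 4 of 19 tested snRNAs were higher. Their counts were low, from 9 to 140 for Rny3 and 27 to 412 for Snord17 per library.

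Snord17, a box C/D small nucleolar RNA of the kind that guides methylation of other RNAs, measured 8.63, 15.4, 11.4, 16.7 and 10.8 CPM in KO vehicle hearts, against 3.88, 1.89, 3.79, 4.02 and 7.01 CPM in WT vehicle hearts. Under isoproterenol Snord17 measured 12.9, 12.4, 14.1, 11.8 and 14.1 CPM in KO hearts, against 6.12, 5.44, 8.71, 7.12 and 8.52 CPM in WT hearts. Neither treatment showed overlap, and the log2 fold change was 1.22 (SE 0.163, adjusted p = 0.00101). It lies within Snx5 on the same strand, whose log2 fold change was 0.10 (adjusted p = 0.423). The snoRNA Gm25291 (0.73), named like the next after its values were seen, lies in the same way within Sec24a (0.18) and the Cajal body RNA Gm25395 (0.82) within Atg16l1 (0.01). None of these 3 host genes passed, though reads of a small RNA and of its host's introns cannot be told apart by position.

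Gm25939, the most abundant of the called 191-base snRNAs shown above, measured 9.04, 13.6, 13.6, 15.9 and 9.71 CPM in KO vehicle hearts, against 5.51, 3.70, 5.69, 5.30 and 6.39 CPM in WT vehicle hearts. Under isoproterenol Gm25939 measured 13.2, 13.4, 15.4, 12.8 and 17.6 CPM in KO hearts, against 7.51, 6.38, 9.51, 10.5 and 9.92 CPM in WT hearts. The groups did not overlap in either treatment (0.96, SE 0.117, adjusted p = 0.000155). Its copies Gm22973 (1.29) and Gm25360 (0.85) rose with adjusted p of 0.0447 and 0.0495 and lost the call in 16 and 17 of 20 leave-one-out runs. The pair Gm24407 (1.30) and Gm24265 (0.88) passed at 0.0310 and 0.0318 and lost the call in 6 and 9. All of these snRNAs were named after their values were seen.

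Rny3 measured 2.29, 2.07, 1.15, 1.90 and 2.13 CPM in KO vehicle hearts, against 1.12, 0.629, 1.39, 0.566 and 0.719 CPM in WT vehicle hearts. Under isoproterenol Rny3 measured 2.29, 1.78, 2.13, 2.56 and 5.89 CPM in KO hearts, against 0.751, 1.33, 0.50, 0.609 and 1.26 CPM in WT hearts. Under vehicle 1 KO library lay among the WT libraries, under isoproterenol the groups did not overlap, and the log2 fold change was 1.44 (SE 0.240, adjusted p = 0.00324). The related Rny1 had 0.59 and did not pass. Rnu12, named after its values were seen, passed the average without a shift in both treatments (1.30, SE 0.166, adjusted p = 5.54e-05). Under vehicle KO hearts had 1.29, 3.69, 3.07, 3.15 and 2.26 CPM of Rnu12, against 0.612, 0.559, 0.619, 0.566 and 0.585 CPM in WT hearts. Under isoproterenol KO hearts had 2.19, 1.59, 2.35, 2.27 and 1.64 CPM, against 1.10, 1.46, 1.95, 1.41 and 1.47 CPM in WT hearts, and the groups overlapped. Rnu12 had log2 fold changes of 2.17 under vehicle and 0.44 under isoproterenol, a difference with an unadjusted p of 1.55e-05 and an adjusted p of 0.231. The other snRNA of the minor spliceosome that was tested, Rnu11, had 0.10 and did not pass.

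**Figure D5:**
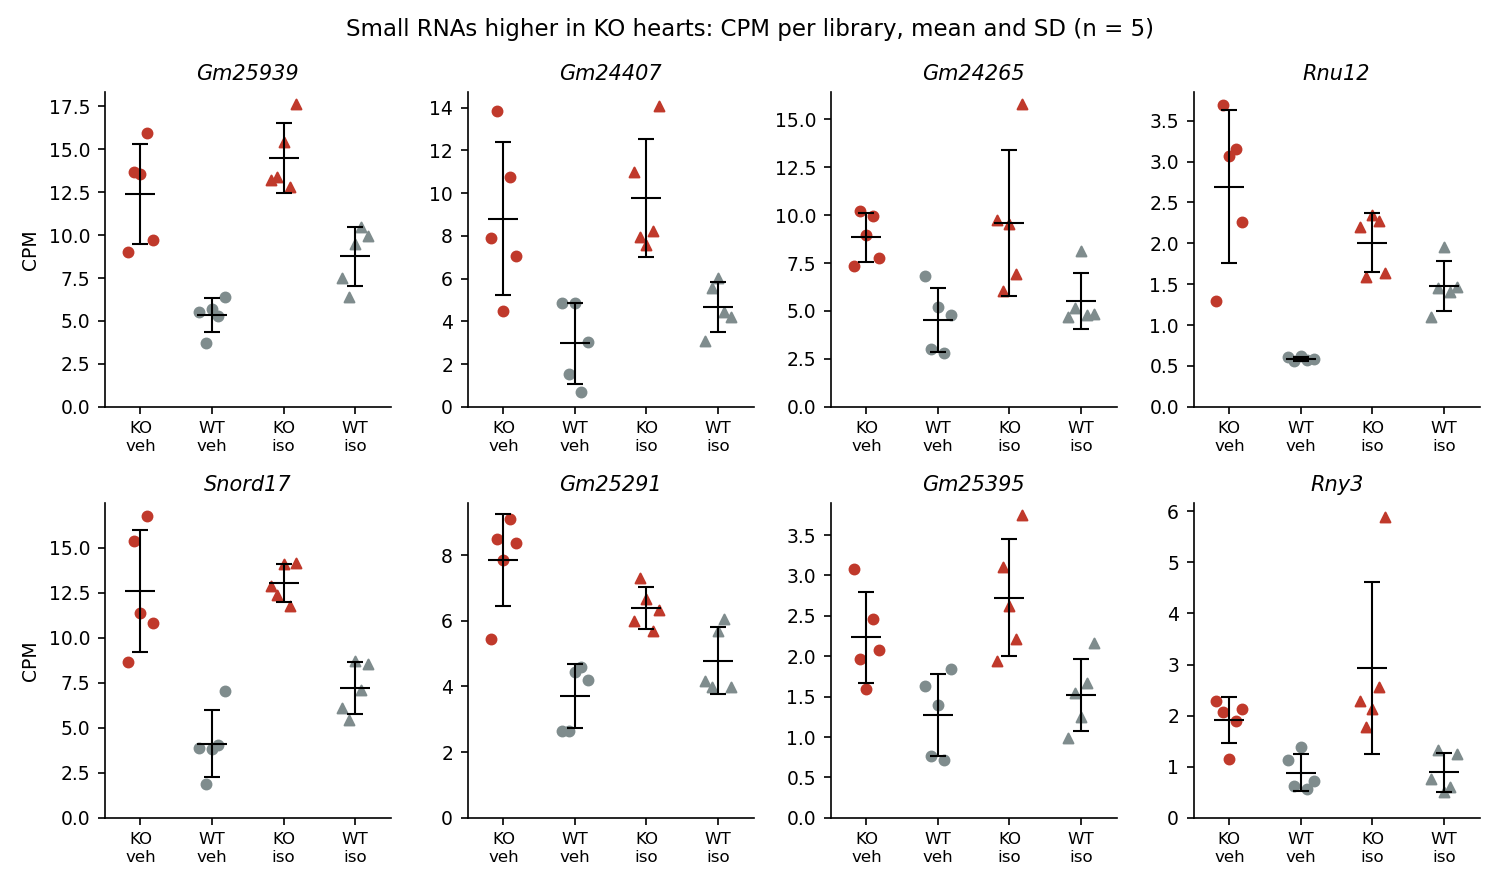
CPM per library (y axis, from 0) for 8 small noncoding RNAs that passed the averaged test, in KO vehicle, WT vehicle, KO isoproterenol and WT isoproterenol hearts (x axis). Points are libraries and black bars the mean and SD of 5. For Gm25939 and Snord17 the KO libraries lie above the WT libraries within each treatment, and for Rnu12 the vehicle groups are apart while the isoproterenol groups overlap.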

How the data were processed

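Stranded total RNA libraries from powdered mouse hearts, 20 in all, were analysed from the authors' deposited table of raw counts per gene. Per the submitters' processing notes the tools were HISAT2 2.1.0, featureCounts 1.6.3, R 3.6.0 and limma 3.40.6, with build GRCm38. Whether counting used strand, how it treated reads with several hits and which annotation it used are not given in the sources used here. Symbols and coordinates came from GENCODE vM21, which held 55154 of the 55335 gene IDs, 54587 of them in the same version.

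Groups came from the labels. In R 4.3.3 with edgeR 4.0.16, filterByExpr kept 14878 genes, TMM set the scaling (CPM are scaled by it) and a robust quasi-likelihood fit held a mean per group, on 16 residual degrees of freedom (the coefficient of biological variation was 0.119). KO minus WT was averaged over both treatments and p-values were adjusted over all genes tested. The fit was checked on simulated counts. Among 40 pairs within groups none agreed within sampling noise.

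The members, lists and libraries left out were chosen with earlier results of these data known. Genes named by rule were Ogfod1 and Rps23, the 10 consistent genes with the smallest p and the 5 with the largest fold change in each direction (mean log2 CPM of at least 0), and up to 3 passing members per list. Lists were described by counts and medians only, and some named genes are not reported here. Among sex-linked and C57BL/6 substrain genes 0 passed, with log2 fold changes of −0.16 for Eif2s3y, −0.06 for Ide, −0.01 for Nnt, 0.03 for Kdm5d, 0.08 for Uty and 0.18 for Wdfy1, and 0 had an unadjusted p under 0.05.

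The alternatives were DESeq2 1.42.0, limma-voom (limma 3.58.1) with and without quality weights, an additive model, RLE and upper quartile scaling, no filter or a stricter one, the mitochondrial genome left out, 2 surrogate variables (sva 3.50.0), and each library, or both that stood apart, left out.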

Additional observations from a re-analysis of the deposited data

Results flagged for a closer look

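The check for stray libraries covered 144 groups of 5 libraries from genes named by rule, not every group of all 44 such genes. Of these groups, 15 had 1 library far from the other 4, by a gap of more than 0.71 of the group's range, both taken on the log2(CPM + 0.5) scale. Chance flags about 1 in 20 groups. Values are CPM, and no cause was tested.

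KO isoproterenol replicate 5, which also stood apart in matrix genes, was far from its group for 5 genes. It had 13.5 CPM of Slc38a1, against 15.9 to 16.7 in the other libraries of its group, 381 of Fhl2 against 435 to 455, and 136 of Acaa2 against 158 to 165. It had 5.89 of Rny3 against 1.78 to 2.56, and 41.0 of Gpx1 against 26.7 to 30.2. KO isoproterenol replicate 1 had 6.88 of Tiam2 against 8.95 to 9.54, and KO isoproterenol replicate 3 had 27.7 of Sacm1l against 22.9 to 23.9 and 1.47 of Cntn5 against 1.95 to 2.16.

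In KO vehicle hearts, replicate 3 had 1.15 CPM of Rny3 against 1.90 to 2.29 and 30.8 of Kcnj5 against 25.3 to 26.4, and replicate 2 had 3.73 of Col12a1 against 5.13 to 5.76. In WT isoproterenol hearts, replicate 5 had 7.06 CPM of Abca4 against 3.52 to 4.24 and 213 of Acaa2 against 170.1 to 179, and replicate 1 had 29.5 of Rnf207 against 35.3 to 37.0 and 32.1 of Gpx1 against 27.0 to 28.1. Slc38a1, Fhl2, Rny3, Tiam2, Sacm1l, Kcnj5, Abca4 and Rnf207 kept their calls in all 31 alternatives.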

How the results depend on the processing

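The 126 averaged calls had the same sign under every alternative in which they were tested. DESeq2 called 126 of them, limma-voom 110, and the runs without 1 library 70 to 110. Of 116 called genes with a named symbol or a small RNA annotation, 55 kept the call in all 31 alternatives. Beside 57 higher and 69 lower averaged calls, 45 higher and 55 lower consistent ones, and 19 calls under vehicle and 27 under isoproterenol, DESeq2 gave 99, 129, 64, 85, 73 and 138, in that order. Quality weights in limma-voom gave 90, 106, 66, 76, 40 and 62. Omitting the count filter gave 178, 172, 115, 102, 117 and 250. With 2 surrogate variables there were 127, 135, 97, 99, 48 and 45, and without both libraries that stood apart 82, 93, 61, 69, 38 and 50. Leaving out 1 library gave 33 to 67 higher and 41 to 84 lower averaged calls, 26 to 47 higher and 31 to 61 lower consistent calls, 10 to 35 under vehicle and 10 to 55 under isoproterenol. The lowest averaged counts came without WT vehicle replicate 3. No cause was tested. Depth limits RNAs of few counts, such as Gm22973 with 0 to 22 per library. No paired analysis was possible because replicate numbers follow accession order and pair no libraries.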
